A study of Mus musculus with 6 samples.

Results

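Genes that move water, chloride, bicarbonate and sodium across the pancreatic duct epithelium were examined in cultured mouse cancer cells in which Brca2 was knocked down. The group was defined by 8 gene symbols: the aquaporins Aqp1, Aqp5 and Aqp11, the chloride channel gene Cftr, the channel regulator Clca1, the carbonic anhydrases Car2 and Car12, and the sodium pump subunit Atp1b1. It was chosen on the rise of Aqp5 in the same libraries, so the difference of Aqp5 between the groups is given as a description and is not tested. Of the 8 genes, 6 had a row among the 10616 genes of the count table, and Cftr and Car12 were not analysed here.

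The cells were of the KPC line, a mouse pancreatic ductal adenocarcinoma line, and were transduced with a lentiviral pLKO.1 vector and selected with puromycin. The vector carried either a hairpin against Brca2 (shBrca2, 3 libraries) or a non-targeting hairpin (shControl, 3 libraries), so the control cells share the vector and the drug selection. Cells were grown in standard growth medium in plastic wells, and live cells were sorted by exclusion of propidium iodide before poly(A) RNA capture and 3′ end sequencing. Such a culture is a single transformed line without the polarity and hormonal input of a duct, and the labels do not say if each library is a culture of its own. The study's text describes these cells as cultured but counts the replicates as mice, so what a replicate is remains unclear. The p-values below measure only the spread between these libraries.

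The pancreatic duct secretes a watery, bicarbonate-rich fluid. The sodium pump sets up the ion gradients from the basolateral side, carbonic anhydrases supply bicarbonate from carbon dioxide and water, and CFTR and partner exchangers release chloride and bicarbonate into the lumen. Water follows through aquaporins, which are membrane pores built from tetramers. AQP1 and AQP5 are classical water channels of secretory epithelia, and AQP11 is an intracellular member of the family.

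The libraries held from 1519340 to 2452467 counts. Raw counts of Brca2 were 33, 52 and 33 in shControl but 10, 11 and 14 in shBrca2, so the libraries followed their labels. Noncoding genes overlap Brca2 on both strands and the protein coding gene N4bp2l1 on the opposite strand, so the Brca2 count is uncertain to that extent. The main axis of variation across all genes (principal component 1, 41.1% of the variance) did not separate the groups. shControl replicate 3 lay at one end of it, and the counts of called genes and the fold changes of Brca2, the called transport genes and the listed members other than Clca1 were recomputed without each library. The epithelial identity of the cells was checked against 12 duct markers, of which 11 were listed. Krt18, Krt8, Krt19 and Spp1 were abundant, from 2909 to 9184 normalized counts on average, while Epcam averaged 6.52. Other cell types were nearly unmarked: 2 of 10 acinar, 1 of 9 fibroblast, 1 of 7 immune, 0 of 7 endocrine and 0 of 5 endothelial markers were listed, and none of these 4 was called.

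Among the aquaporins, Aqp5 was high in every shBrca2 library and Aqp1 was high in every shControl library. Normalized counts are raw counts divided by a size factor that sets the libraries to a common scale. Aqp5 (ENSMUSG00000044217, chr15:99591028-99594829 on mm10) had normalized counts of 183, 197 and 209 with the Brca2 hairpin, against 63.7, 83.9 and 85.0 with the control hairpin. The groups did not overlap, and the lowest shBrca2 library stood 2.15 times above the highest shControl library. The mean was 77.5 ± 12.0 in shControl (SD, n = 3) against 196 ± 13.2 in shBrca2 (SD, n = 3). The log2 fold change was 1.34 ± 0.22 (SE), or 2.53-fold. This is the value that chose the group. The estimate lay between 1.22 without shControl replicate 1 and 1.40 without shControl replicate 3. A noncoding gene, Gm34765, overlaps Aqp5 on the opposite strand. As no source says whether counting used strand, reads of the 2 genes cannot be told apart.

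Aqp1 encodes the water channel of red cells, kidney tubules and capillary endothelium, and is also found in pancreatic ducts (ENSMUSG00000004655, chr6:55336299-55348555 on mm10). Counts after normalization were 132, 94.5 and 101 in shBrca2 and 164, 180.3 and 170.1 in shControl. All shBrca2 libraries were below all shControl libraries, with the closest approach at shBrca2 replicate 1. The log2 fold change was -0.66 ± 0.22 (SE), with a 95% interval from -1.08 to -0.24, and the gene was not called over all genes (DESeq2 likelihood ratio test, adjusted p = 0.139). Without shBrca2 replicate 1 the log2 fold change was -0.81 and the adjusted p by DESeq2 was 0.0634, which passed. The adjusted p ranged from 0.187 to 0.628 when any other library was left out. Of the 5 endothelial markers, 0 had a row in these sorted cultures, where every listed gene has at least 6 counts in some library. The cell source of the Aqp1 counts was not tested.

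**Figure D1:**
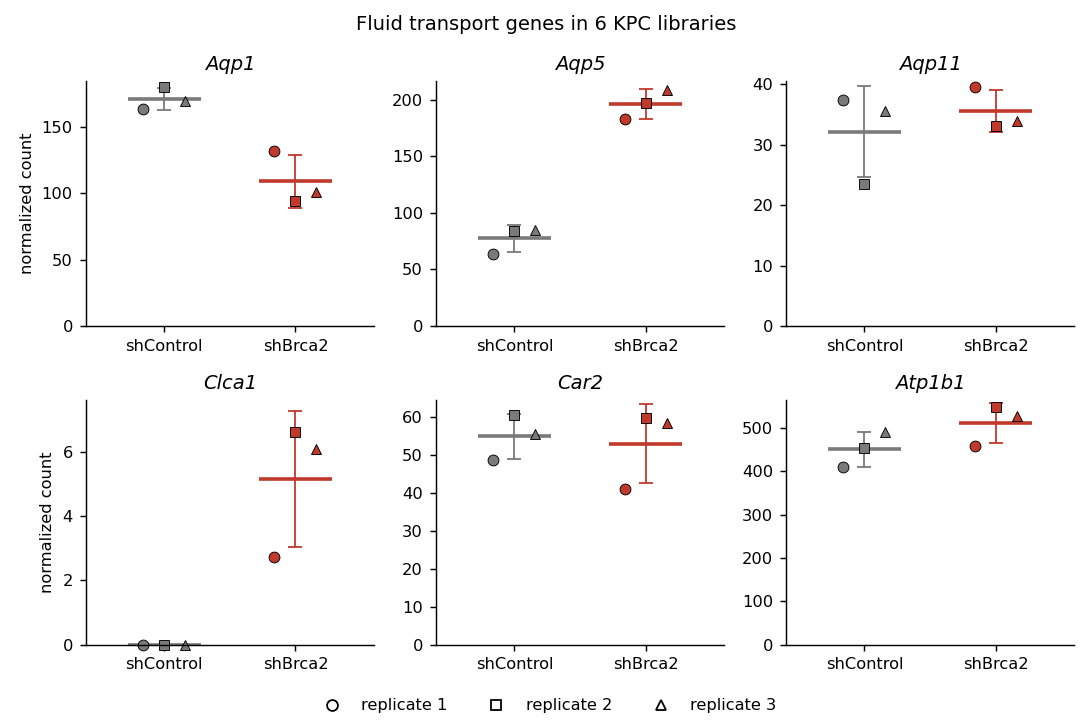
Normalized counts (y axis, linear, from 0) of the 6 listed members in the shControl and shBrca2 libraries (x axis). Each symbol is a library, its shape is the replicate number within its group, the thick line is the mean and the bar is ± 1 SD (n = 3). Aqp5 and Clca1 lie higher and Aqp1 lower in all 3 shBrca2 libraries, while Aqp11, Car2 and Atp1b1 overlap between the groups.

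Because the counts are of transcript 3′ ends and do not scale with transcript length, counts of different genes within a library can be set side by side, although each gene's capture can differ. The order of Aqp1 and Aqp5 was opposite in the groups. Raw counts were 97 for Aqp1 and 134 for Aqp5 in shBrca2 replicate 1, 100 and 208 in replicate 2, and 116 and 240 in replicate 3. In shControl they were 162 and 63, 215 and 100, and 172 and 86. Aqp5 thus gave 1.38, 2.08 and 2.07 counts for each count of Aqp1 in shBrca2, and 0.389, 0.465 and 0.50 in shControl. This ratio needs no normalization between libraries, and its difference includes that of Aqp5, which chose the group.

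Another aquaporin, Aqp8, was the most abundant of the family here. AQP8 passes water and also small molecules such as hydrogen peroxide and ammonia. It had normalized counts of 299.7, 292 and 283 in shBrca2 and 216, 231 and 220.5 in shControl. The groups did not overlap, but the gene was not called. Its log2 fold change was 0.39 ± 0.17 (SE) and its adjusted p by DESeq2 was 0.44.

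Aqp8 took 46.1 ± 1.15% (SD, n = 3) of the counts of the 4 listed aquaporins in shBrca2 and 44.2 ± 0.949% in shControl. Aqp5 took 31.1 ± 2.81% in shBrca2 and 15.4 ± 1.85% in shControl (SD, n = 3). Aqp1 took 17.2 ± 2.62% in shBrca2 and 34.0 ± 0.760% in shControl (SD, n = 3). By these shares, the places of Aqp1 and Aqp5 behind Aqp8 were exchanged between the groups. The 4 shares make up a whole, so a larger share for Aqp5, which chose the group, leaves less for the other genes together. The fall in the share of Aqp1 is therefore not a result apart from Aqp5. Together the 4 genes had 297 to 316 CPM (counts scaled to a common library total) in the shBrca2 libraries and 227 to 253 CPM in the shControl libraries, a sum that contains Aqp5.

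**Figure D2:**
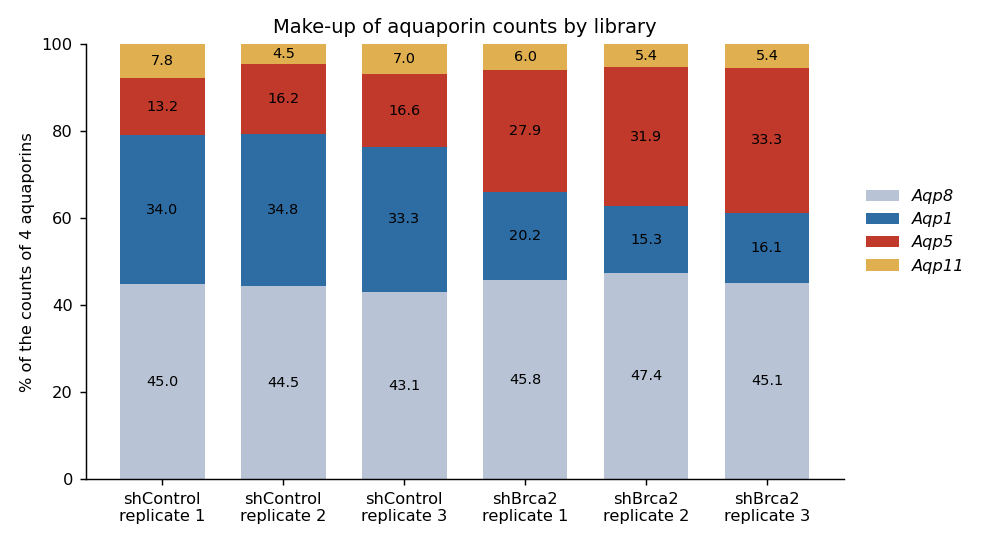
Share of each of the 4 listed aquaporin genes (percent of their summed raw counts, y axis) in each library (x axis), stacked to 100%. Aqp5 holds from 13.2% to 16.6% in the shControl libraries and from 27.9% to 33.3% in the shBrca2 libraries, and Aqp1 holds from 33.3% to 34.8% and from 15.3% to 20.2% in that order.

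Aqp11 lies on the minus strand at chr7:97726379-97738247 (mm10) and encodes an aquaporin of the endoplasmic reticulum that is needed for normal kidney tubules. The libraries gave normalized counts of 39.5, 33.1 and 33.9 in shBrca2 and 37.4, 23.5 and 35.6 in shControl. The groups overlapped, and shControl replicate 2 was the lowest library. The log2 fold change was 0.14 ± 0.37 (SE), with a 95% interval from -0.57 to 0.86 and an adjusted p of 0.976 by DESeq2. With raw counts of 28 to 39, a change as large as that interval's ends was not excluded at this depth.

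Clca1 encodes a secreted metalloprotease that raises the activity of calcium-activated chloride channels and is typical of mucus-producing cells. It had raw counts of 2, 7 and 7 in shBrca2 and 0, 0 and 0 in shControl. Every count of the gene, 16 in all, thus came from shBrca2 libraries. With a floor of 3 counts for each shControl library, the mean of Clca1 in shBrca2 was 1.81 times the floor. This is not a lower bound, as the shBrca2 mean carries its own counting error and shBrca2 replicate 1 was itself under this floor. DESeq2 gave no adjusted p, as the base mean (the average normalized count over all libraries) was 2.57 and the filter on low means was at 4.64. Without that filter the adjusted p by DESeq2 was 0.148, and the gene would still fail the base mean threshold of 5. Every row of the table has at least 6 counts in some library, so Clca1 was listed through its shBrca2 libraries and had to differ. The symbol Clca1 is also an older name of the related gene Clca3a1, and the annotation used for counting is not given in the sources used here, so the identity of this row is uncertain.

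Of the enzymes that supply bicarbonate, Car2, the fast cytosolic carbonic anhydrase (ENSMUSG00000027562, chr3:14886269-14900770 on mm10), showed no separation. Its normalized counts were 40.9, 59.6 and 58.3 in shBrca2 and 48.5, 60.4 and 55.4 in shControl. The lowest library of each group was its replicate 1, and the ranges overlapped over most of their width. The log2 fold change was -0.04 ± 0.30 (SE), with a 95% interval from -0.63 to 0.55 (adjusted p = 0.989 by DESeq2). The sign was not stable, being 0.10 without shBrca2 replicate 1 and 0.04 without shControl replicate 2.

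Atp1b1 encodes a beta subunit, which brings the sodium pump to the membrane (ENSMUSG00000026576, chr1:164437099-164458355 on mm10). It was the most abundant member, at percentile 92.8 of base mean over all listed genes. Its normalized counts were 459, 547 and 528 in shBrca2 and 409, 453 and 490.4 in shControl. The groups overlapped through shBrca2 replicate 1, and the log2 fold change was 0.18 ± 0.16 (SE), with a 95% interval from -0.13 to 0.50 (adjusted p = 0.866 by DESeq2). The interval's upper end was near the threshold of 0.5 for a call. Atp1b1 overlaps the protein coding gene Nme7 on the opposite strand, so its count is uncertain to that extent.

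**Figure D3:**
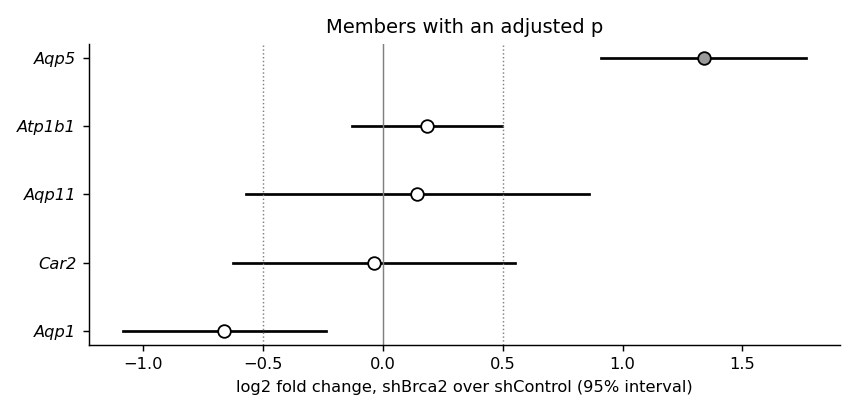
Log2 fold change of shBrca2 over shControl (x axis) for the 5 members with an adjusted p (rows), with 95% intervals as lines. The grey point is Aqp5, which chose the group, dotted lines mark ± 0.5, and the intervals of Atp1b1, Aqp11 and Car2 span 0 while that of Aqp1 runs from -1.08 to -0.24.

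Of the 5 members with an adjusted p, 1 was called higher (Aqp5) and 0 lower. To be called, a gene had to pass 0.1 for the adjusted p, 0.5 for the size of its log2 fold change and 5 for its base mean. Among all 9997 genes with an adjusted p, 1.27% were called, 0.770% higher and 0.50% lower. As the call is that of the choosing gene, nothing is read from the count of members. The groups stood apart with no overlap for 3 of the 6 listed members (Aqp1, Aqp5 and Clca1), against 20.3% of all listed genes. Of those 3, Aqp5 chose the group and Clca1 was listed only through its higher group. The median log2 fold change of the 6 was 0.16, and that of all genes tested was near 0 (-0.00094). The 6 include Aqp5 and Clca1, which were higher in shBrca2 by how they were chosen or listed. Nothing is therefore read from this median.

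By level in the shControl libraries the members ranked Atp1b1, Aqp1, Aqp5, Car2, Aqp11 and Clca1, and in shBrca2 Aqp5 came before Aqp1. Neighbours in these orders did not overlap in either group. The nearest were Car2 and Aqp11 in shBrca2, where the lowest Car2 value was 40.9 and the highest Aqp11 value 39.5, both in replicate 1 from 30 and 29 raw counts, so these did not differ beyond counting error in that library. In shControl the lowest Aqp5 value (63.7) was near the highest Car2 value (60.4). The spread between replicates was smallest for Aqp1 in shControl (4.89% of the mean) and Aqp5 in shBrca2 (6.72%), and among members with over 10 counts it was largest for Aqp11 in shControl (23.5%).

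The other genes of ductal fluid and ion transport were then counted from lists by role, which were drawn up with earlier results of these data known. Of 110 such genes, 53 were listed and 52 had an adjusted p. One was called higher (Slc26a2) and 3 were called lower (Ano1, Slc4a11 and Fxyd5), which is 7.69% of those tested beside 1.27% of all genes. The median log2 fold change of the 53 was -0.01, with 26 above and 27 below 0, and 15 of the 53 (28.3%) did not overlap between groups, beside 20.3% of all genes. The count of 4 was not stable. Leaving out shBrca2 replicate 3 left 1, leaving out shControl replicate 2 left 1, and leaving out shBrca2 replicate 1 left 2.

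Slc4a11, named with the bicarbonate transporters for its sequence but known for proton, ammonia and water movement in the corneal endothelium, was the firmest of these. It had normalized counts of 44.9, 34.0 and 48.7 in shBrca2 and 86.9, 108 and 124 in shControl. Every shBrca2 library was below every shControl library, and Slc4a11 fell by 1.32 on the log2 scale (SE 0.28, adjusted p = 0.00104 by DESeq2). It was called whichever library was left out, with a highest adjusted p of 0.0333. A noncoding gene, Gm74569, overlaps Slc4a11 on the opposite strand, so its count is uncertain to that extent.

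In the same list Slc26a2, a sulfate and chloride exchanger that feeds proteoglycan sulfation, had normalized counts of 230.2, 175 and 192 in shBrca2 and 120.2, 82.2 and 123 in shControl. All shBrca2 libraries were higher, and the gene rose by 0.88 ± 0.23 (SE) on the log2 scale (adjusted p = 0.017 by DESeq2). It was not called without shBrca2 replicate 1 (adjusted p = 0.221), shBrca2 replicate 3 (0.155) or shControl replicate 2 (0.327). Of the 8 genes tested in this list, 1 was called higher and 1 lower, and the others had adjusted p-values of at least 0.785.

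Ano1 encodes the calcium-activated chloride channel TMEM16A, which carries chloride and some bicarbonate in parallel with CFTR. It was the most abundant of the listed apical anion channel genes and the 1 of 19 tested that was called. Its normalized counts were 436, 483 and 394 in shBrca2 and 612, 631 and 623 in shControl, so the shControl libraries were tightly grouped above all shBrca2 libraries. Noncoding genes overlap Ano1 on both strands, so its count is uncertain to that extent. The log2 fold change of Ano1 was -0.51 ± 0.15 (SE), close to the threshold of 0.5. The adjusted p was 0.081 by DESeq2 and 0.114 by edgeR. It was called without shBrca2 replicate 2 and in no other fit that left out a library, where the adjusted p was 0.229 without shBrca2 replicate 1, 0.339 without shBrca2 replicate 3, 0.123 without shControl replicate 1, 0.384 without shControl replicate 2 and 0.251 without shControl replicate 3.

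Among the sodium pump genes, Fxyd5 was the 1 of 5 tested that was called. It encodes dysadherin, a small membrane protein that binds the pump and can loosen cell contacts. Its normalized counts were 40.9, 33.1 and 30.5 in shBrca2 and 70.7, 86.4 and 64.3 in shControl, with no overlap, and it fell by 1.10 on the log2 scale (SE 0.31, adjusted p = 0.0383 by DESeq2). The call was lost without shBrca2 replicate 2 (adjusted p = 0.152), shBrca2 replicate 3 (0.339) or shControl replicate 2 (0.456). Noncoding genes overlap Fxyd5 on both strands, so its count is uncertain to that extent. Neither Atp1b3, another beta subunit gene, nor Fxyd3, a pump regulator, was called. Their log2 fold changes were 0.18 ± 0.16 (SE) for Atp1b3 and 0.12 ± 0.35 (SE) for Fxyd3. The upper end of the 95% interval was 0.50 for both beta subunits, Atp1b1 and Atp1b3.

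No gene was called among 7 carbonic anhydrases, 9 basolateral cotransporters, proton exchangers and kinases, and 5 potassium and sodium channels. Slc12a2, the sodium, potassium and chloride cotransporter NKCC1 that loads secretory cells with chloride, was the most abundant of its list, and its log2 fold change was -0.05 ± 0.19 (SE), with a 95% interval from -0.42 to 0.32. Kcnn4, a calcium-activated potassium channel that keeps the driving force for anion secretion, led the channel list at 723 normalized counts, with -0.25 ± 0.16 (SE) and an interval from -0.55 to 0.06. Among carbonic anhydrases Car2 was the most abundant.

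**Figure D4:**
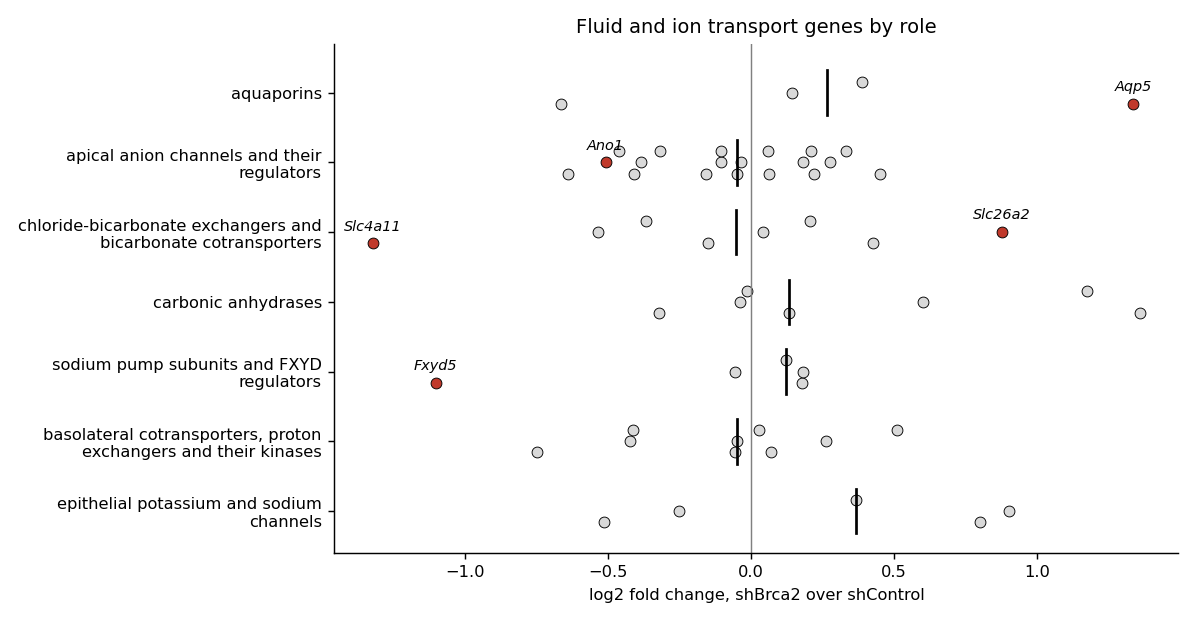
Log2 fold change of shBrca2 over shControl (x axis) for each fluid and ion transport gene with an adjusted p, members included, grouped by role (rows). Red points are called genes, labelled by name, grey points are not called, and the vertical bar in each row is the list's median. Vertical offsets within a row only separate points. Aqp5, which chose the group, is a red point and enters the median of the aquaporin row, so no test is read from either.

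**Figure D5:**
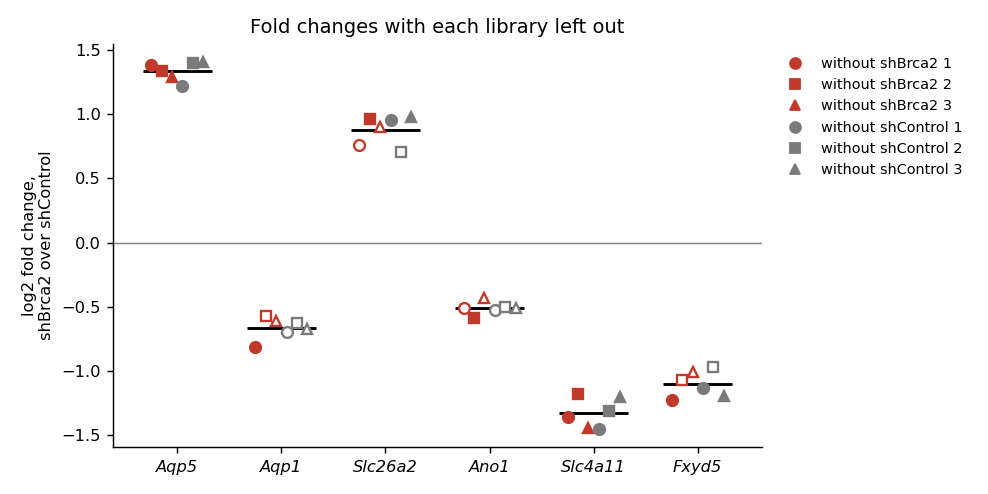
Log2 fold change of shBrca2 over shControl (y axis) for Aqp5, Aqp1 and the 4 other called transport genes with each of the 6 libraries left out in turn (symbols), beside the value from all libraries (black line). Filled symbols are fits in which the gene was called and open symbols fits in which it was not, except that symbols of Aqp5, which chose the group, are filled with no test read; all 6 fits kept the sign of each gene.

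Among the duct markers, 2 of 11 were called, both higher in shBrca2, beside 1.27% of all genes called and 0.770% called higher. Of the 11 log2 fold changes, 4 were above 0 and 7 below. For Krt18 the groups all but touched, with 9328.07 as the highest shBrca2 value and 9328.13 as the lowest shControl value. Its log2 fold change was -0.12 ± 0.13 (SE), and it was not called (adjusted p = 0.898 by DESeq2). Krt7, a keratin of simple duct epithelium, had normalized counts of 383, 351 and 282 in shBrca2 and 121, 156 and 161 in shControl (log2 fold change 1.21 ± 0.20, SE, adjusted p = 2.07e-06 by DESeq2). Sox9, a transcription factor of duct and progenitor cells, had 54.5, 69.0 and 92.2 in shBrca2 and 25.3, 26.8 and 42.5 in shControl (1.20 ± 0.34, SE, adjusted p = 0.0391 by DESeq2). A noncoding gene overlaps Krt7 and another overlaps Sox9, both on the opposite strand, so these counts are uncertain to that extent. The summed level of the 11 markers overlapped, from 11257 to 11809 CPM in shBrca2 and from 11230 to 14131 in shControl, and their median log2 fold change was -0.12. In bulk libraries fewer cells of a kind and less RNA per cell cannot be told apart. The part of Krt7 or Sox9 in the difference of Aqp5 was not tested.

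The genes whose pattern over the 6 libraries was most like that of Aqp5 were looked for among 7795 genes with a base mean of at least 20, by Pearson's r of log2 normalized counts. They were Tm4sf4 (r = 0.998), a four-transmembrane protein of the L6 family, Eef1a1 (0.994), the translation elongation factor, Pip5k1b (0.993), a kinase that makes a membrane phosphoinositide, Cmtm8 (0.993), a membrane protein with a MARVEL domain, and Sptssb (0.993), a small subunit of the enzyme that starts sphingolipid synthesis. All 5 separated the groups, so these values mainly restate the difference between shBrca2 and shControl, and the 6 points share their libraries and scaling. The sizes differed, with log2 fold changes of 1.45 for Tm4sf4, 0.37 for Eef1a1, 0.62 for Pip5k1b, 0.78 for Cmtm8 and 1.36 for Sptssb. Eef1a1 and Pip5k1b were not called. Within the listed members, r with Aqp5 was 0.964 for Clca1, 0.760 for Atp1b1, 0.222 for Aqp11, -0.01 for Car2 and -0.897 for Aqp1 over the same 6 libraries. Clca1 was listed only through its shBrca2 libraries, so its r with Aqp5 had to be high. As Aqp1 also separated the groups, its r too mainly restates the group difference.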

How the data were processed

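RNA from live-sorted KPC cells was turned into 3′ end libraries with a modified MARS-seq protocol and read on an Illumina NextSeq sequencer. The authors deposited raw counts per gene symbol, not normalized and with replicates not pooled. The submitters' processing notes name bcl2fastq, cutadapt, STAR 2.4.2a, HTSeq, DESeq2 and the mm10 build. The annotation, the use of strand and the use of molecular identifiers are not given in the sources used here. Floors from counts therefore cover counting error only. Like the p-values, the intervals of the log2 fold changes measure only the spread between these libraries. Columns were matched to samples by title and groups came from the source name. Replicate numbers only name libraries. Libraries of a group differed beyond counting noise (chi-square per degree of freedom of at least 4.33).

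Differential expression was tested on all 10616 genes with DESeq2 1.42.0 in R 4.3.3 by a likelihood ratio test with median-of-ratios size factors, with Benjamini-Hochberg adjustment and the study's thresholds. The 95% intervals are Wald intervals from the standard error. Lists are described by counts and medians, without a set test. Alternatives were edgeR 4.0.16 (quasi-likelihood), the Wald test, other scalings and filters, a stricter threshold and each library left out. The steps were tested on simulated data. Positions are from RefSeq on GRCm38.p6, the assembly of mm10, and strands and overlaps from GENCODE vM39. Overlapping genes were also found for Kcnn4, Tm4sf4, Eef1a1, Pip5k1b, Cmtm8 and Sptssb, with the same doubt about their counts. The members and lists were chosen with earlier results of these data known. Named genes were the members, the called genes and the most abundant gene of each list (1 of which is not reported here), the 5 genes most like Aqp5, and Brca2. Krt7, Sox9 and the members of lists with 5 or fewer tested genes were named after their values were seen.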

Additional observations from a re-analysis of the deposited data

How the results depend on the processing

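With all 6 libraries kept, no alternative tool, scaling, filter or threshold changed the sign or call of a member with an adjusted p. The only called member was Aqp5, which chose the group, so its stable call is a description and no test is read from it. The log2 fold change of Aqp5 was 1.34 in each of these fits. Across the 6 fits that each left out a library, it ranged from 1.22 to 1.40, that of Aqp1 from -0.81 to -0.57 (called without shBrca2 replicate 1 only), that of Atp1b1 from 0.12 to 0.25, that of Aqp11 from -0.046 to 0.26 (below 0 without shControl replicate 2) and that of Car2 from -0.13 to 0.10. Across the same fits the members called numbered from 1 to 2, with Aqp5 counted in each. The other transport genes called numbered from 1 to 3 and all genes called from 47 to 140. Of all genes, those called higher numbered from 32 to 98 and those called lower from 15 to 45. Fewer libraries lower the power of each of these fits. Brca2 kept its call in 3 of the 6. Clca1 had no adjusted p in the reported fit and was not compared. Low counts limit Clca1 and Aqp11. CPM values left the order of the members by level the same, and for the 5 genes most like Aqp5, r to Aqp5 on log2 CPM moved by under 0.01. No paired analysis was possible because the titles number the 6 libraries without a number in common between groups.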
